A study of Mus musculus with 3 samples.

Results

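The 32 glycolysis and hypoxia response genes described here are a fixed set of gene symbols, read in the lung cells of 3 groups of mice. All 32 symbols were found among the 32285 genes of the deposited matrices, where they take up 33 entries because Aldoa is listed under 2 gene identifiers, whose counts were summed. The set holds 20 genes of glucose uptake, glycolysis, and lactate and pyruvate handling (Slc2a1, Hk1, Hk2, Gpi1, Pfkl, Pfkp, Pfkfb3, Pfkfb4, Aldoa, Aldoc, Tpi1, Gapdh, Pgk1, Pgam1, Eno1, Pkm, Ldha, Ldhb, Slc16a3 and Pdk1). It also holds 8 genes known to respond to low oxygen (Ankrd37, Bnip3, Egln1, Egln3, Ndrg1, Ddit4, Adm and P4ha1) and 4 genes of the hypoxia-inducible factor (HIF) pathway (Hif1a, Epas1, Arnt and Vhl).

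All mice carried Ccsp-rtTA, which places a doxycycline-dependent activator under the promoter of the club cell secretory protein, together with a TetO-driven mutant EGFR transgene. All were fed chow with 625 ppm doxycycline and were 16 to 20 weeks old. WT healthy carried these transgenes alone, WT tumour carried them with 2 floxed Pparg alleles, and PPARg-/- tumour carried the transgenes, the floxed alleles and Csf1rCre, a Cre active in the monocyte and macrophage lineage. The labels give WT healthy the same transgenes and chow as the tumour groups and state no step that kept its lungs free of tumour. Cells sorted as alveolar macrophages, other myeloid cells, T cells and epithelial cells were mixed in equal parts, and 1 droplet-based 3' RNA library was made per group from 3 pooled mice. A group is thus a single library, which allows no test, so every difference below compares 2 libraries, and the intervals cover counting error only.

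Cells break glucose down through a chain of enzymes that ends in pyruvate, which is turned to lactate or burned in mitochondria. When oxygen is short, HIF-1α (Hif1a) and HIF-2α (Epas1) are no longer hydroxylated by the Egln enzymes and marked for destruction by Vhl. They then pair with Arnt, bind short sites built around RCGTG, and raise transcription of glucose transporters, glycolytic enzymes and a set of target genes. The HIF proteins are controlled largely after transcription, so their RNA is not a measure of their activity. In the lung, endothelial cells are known for high Epas1.

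The libraries held 30454790, 46148658 and 44548318 unique molecular identifiers (UMIs, each counting 1 captured RNA molecule), and 2894, 4268 and 4995 cells passed the filters, for WT healthy, WT tumour and PPARg-/- tumour respectively. Median depth was 5667, 4920.5 and 3527 UMIs per cell. Between 4 and 6 cell barcodes were shared by any 2 libraries. Male and female mice were used per the labels, but Xist, the RNA of the inactive X chromosome, was at 1233, 0.177 and 0.305 UMIs per 1000000 UMIs (CPM), and the Y-linked Ddx3y was at 0.131, 81.7 and 74.5 CPM. WT healthy therefore read as female and both tumour libraries as male, so tumour, sex and the floxed alleles cannot be told apart in WT tumour over WT healthy. Levels below are the UMIs of a gene summed over the cells of a class, in CPM. The kit reads RNA ends, so CPM counts molecules without a length term. Library values are given in the same order throughout.

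The classes differed in which of the 32 genes they held at high levels (the heatmap of levels by class and library). Among the 7 classes with at least 50 cells in every library, 13 of the 32 genes had their highest level in the same class in all 3 libraries. Endothelial cells were highest for Hk1, Ankrd37, Egln1 and Epas1, with Egln1 only narrowly above main macrophages in both WT libraries. Dendritic cells were highest for Pfkp, Pfkfb3 and Vhl, main macrophages for Aldoa, Gapdh and Ldha, nonclassical monocytes for Slc16a3 and P4ha1, and T cells for Pdk1. These are the values of single libraries with no replicate, and after each cell was thinned to 1000 UMIs the number was 8. The share of all genes with the same highest class in every library was not computed, so the number describes these 32 only.

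**Figure D1:**
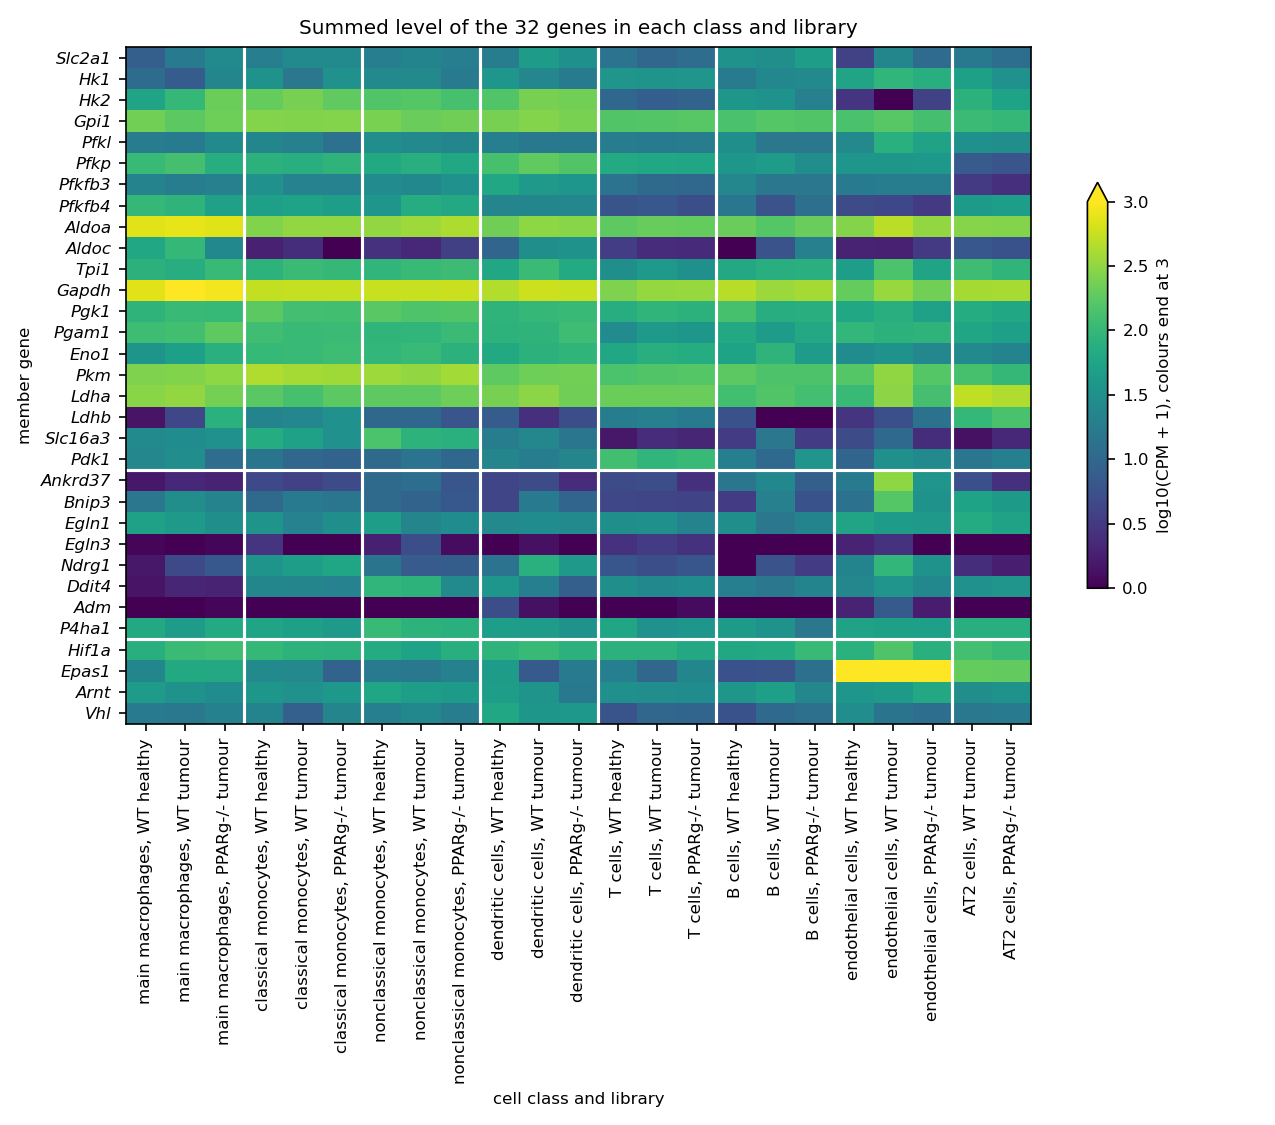
Summed level of each of the 32 genes (rows, as log10 of CPM + 1, colours ending at 3) in each cell class and library (columns); white lines part the cell classes and the 3 gene groups, and AT2 cells of WT healthy are left out for having fewer than 50 cells. Epas1 is brightest in endothelial cells, Aldoc stands out in the main macrophages of both WT libraries, and Ankrd37, Bnip3 and Ldha are brighter in the WT tumour endothelial column than in the endothelial columns beside it.

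Slc16a3, the transporter that exports lactate, was at 142, 87.1 and 80.2 CPM in nonclassical monocytes. In T cells it was at 0.566, 1.41 and 1.11 CPM. Pdk1, the kinase that keeps pyruvate out of mitochondria, ran the other way, with 122, 94.5 and 107 CPM in T cells and 9.91, 13 and 9.18 CPM in nonclassical monocytes. The genes of this paragraph were named for their highest class, so such gaps follow in part from that choice. Vhl, the subunit that directs HIF proteins to degradation, was at 60.7, 38.1 and 39.2 CPM in dendritic cells and 5.09, 8.67 and 8.42 CPM in T cells. P4ha1, a collagen prolyl hydroxylase, was at 106, 87.1 and 79.4 CPM in nonclassical monocytes, and in classical monocytes it was at 55.9, 49.8 and 40.3 CPM.

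Isoenzyme pairs also differed between classes, and a pair share does not depend on the scaling. Hk2, the inducible hexokinase, made up 84.2%, 93.9% and 90.3% of the Hk1 and Hk2 UMIs in main macrophages. In T cells its share was 20.3%, 16.4% and 18.3%, and in endothelial cells it was 3.28%, 0% and 3.70%, so endothelium read Hk1 almost alone. The 0 rests on 0 of 106 UMIs, whose exact 95% interval (Clopper-Pearson) reaches 3.42%. AT2 cells lay between, with 62.7% in WT tumour and 62.4% in PPARg-/- tumour. Epas1 made up 97.8%, 94.3% and 97.4% of the Hif1a and Epas1 UMIs in endothelial cells, 60.4% and 63.9% in the AT2 cells of the tumour libraries, and 9.64% to 26.5% in T cells, where free RNA could supply most of the Epas1.

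**Figure D2:**
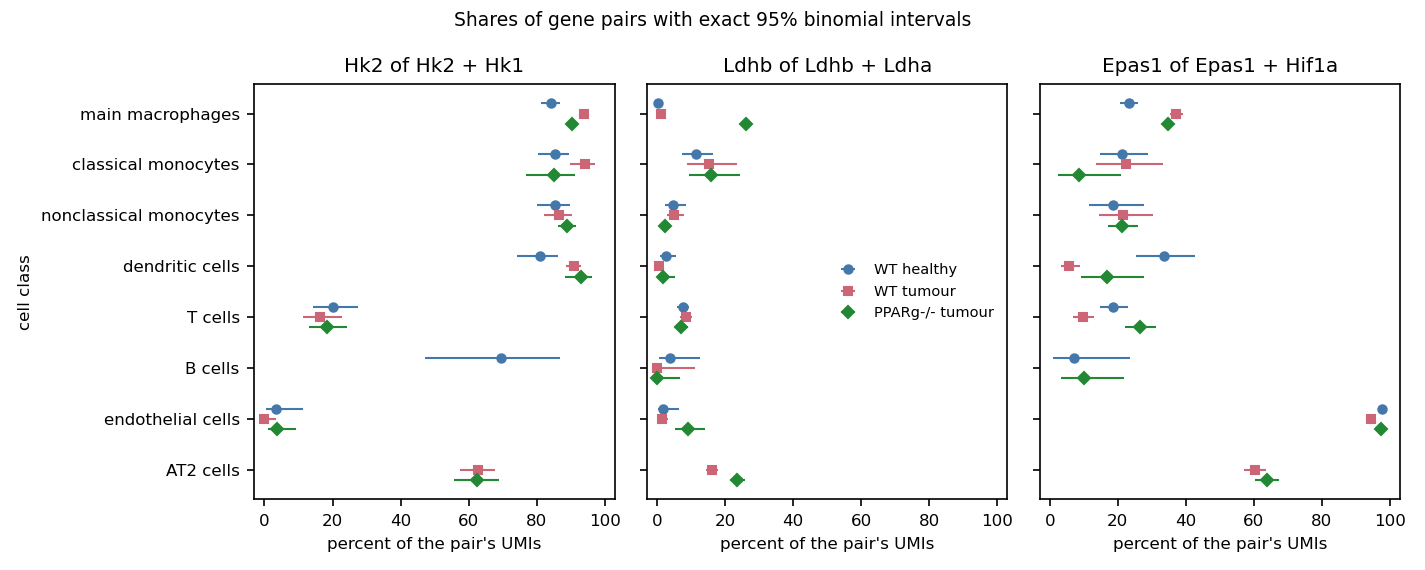
Share of Hk2, Ldhb and Epas1 in the UMIs of each gene with its partner (x axes, percent), by cell class (y axis) and library (marker shape and colour), with exact 95% binomial intervals; pairs with under 20 UMIs in a class and library are not drawn. The Hk2 share is 80.9% or more in the 4 myeloid classes and at most 20.3% in T and endothelial cells, Epas1 is at 94.3% or more in endothelial cells, and the Ldhb share of the main macrophages is 26.1% in PPARg-/- tumour against 0.155% and 1.03% in the other libraries.

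Endothelial cells held the widest difference of the 32 genes between libraries. Their levels were higher in WT tumour than in WT healthy for 13 of the 25 genes measured, and lower in PPARg-/- tumour than in WT tumour for 10 of 26. Among the measured genes Ankrd37 and Bnip3 had the 2 widest ratios in each comparison, and Ndrg1, Ldha, Tpi1, Pkm, Gapdh, Pfkl, Slc2a1 and Hif1a were also past the size rule in both. The 8 hypoxia targets summed to 185, 701 and 218 CPM and the 20 glycolysis genes to 1264, 2238 and 1438 CPM. The comparisons share the WT tumour library, so a level particular to that library enters both.

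A gene counted as higher or lower where the 2 libraries held at least 20 UMIs together, the ratio was at least 1.5-fold, and its exact 95% interval excluded 1. In endothelial cells 5.87% of 8898 genes were higher and 5.92% lower in WT tumour over WT healthy, against 13 and 1 of the 25 measured members. For PPARg-/- tumour over WT tumour the shares were 4.18% and 3.68% of 9178 genes, against 2 and 10 of 26 members. The median log2 ratio of the measured members was 0.74 in the first comparison and −0.50 in the second, where all genes had −0.00 and 0.01. Slc2a1, Pdk1, Ankrd37 and Bnip3 had fewer than 20 UMIs in WT healthy and passed the UMI minimum through WT tumour, so these counts and medians are descriptions of the libraries.

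The endothelial cells numbered 220, 248 and 384. None of the 4 sort gates was set to collect them, so they came through gates meant for other cells. Which gate let them through, and whether it did so alike in each library, is not known. Their defining markers were high in each library: Cdh5, the cadherin of endothelial junctions, was at 2220, 2258 and 2384 CPM and Pecam1 at 1362, 1291 and 1408 CPM. They formed a large cluster of 193, 233 and 332 cells and a small one of 27, 15 and 52 cells.

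Ankrd37, an ankyrin repeat protein gene known as a direct HIF-1 target, differed most. It had 17, 350 and 49 UMIs, or 16.1, 308 and 36.2 CPM, and WT tumour stood far above both other libraries. That is 19.2-fold higher in WT tumour than in WT healthy (log2 ratio 4.26, interval 3.56 to 5.06) and 8.52-fold lower in PPARg-/- tumour than in WT tumour (−3.09, interval −3.55 to −2.66). No cell held more than 6.86% of its WT tumour UMIs. In both clusters the order was the same, with 16.9, 301 and 37.4 CPM in the large cluster and 11.7, 367 and 30.8 CPM in the small one, where WT healthy rested on 2 UMIs. Main macrophages were low at 0.550, 1.24 and 0.915 CPM, as were T cells at 3.96, 4.22 and 1.55 CPM. AT2 cells of the tumour libraries had 4.45 and 1.57 CPM. Nonclassical monocytes had 9.91, 11.1 and 5.40 CPM. B cells rested on 6, 5 and 3 UMIs, at 24.3 CPM in WT tumour. In WT healthy the endothelial level was therefore not far above these last 2 classes, and the wide gap was in WT tumour. Barcodes of 10 to 100 UMIs, which hold free RNA, had 2.96, 8.03 and 3.30 CPM of Ankrd37.

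Bnip3, which encodes a mitochondrial protein of mitophagy and cell death, was at 12.3, 159 and 34.0 CPM in endothelial cells (13, 181 and 46 UMIs). Its log2 ratio was 3.70 (interval 2.88 to 4.63) in WT tumour over WT healthy and −2.23 (interval −2.73 to −1.76) in PPARg-/- tumour over WT tumour. Ndrg1, a stress-responsive gene induced by hypoxia, was at 21.8, 96.0 and 33.2 CPM (23, 109 and 45 UMIs), with log2 ratios of 2.14 (interval 1.48 to 2.86) and −1.53 (interval −2.07 to −1.02). WT tumour was highest for both, and PPARg-/- tumour lay nearer to WT healthy than to WT tumour. Bnip3 had the same order in the small cluster, with 23.5, 290 and 30.8 CPM. Ndrg1 there rested on 1, 2 and 7 UMIs.

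The other hypoxia targets differed little. Egln1, the main oxygen sensor that hydroxylates HIF proteins, was at 55.8, 44.0 and 41.3 CPM. P4ha1 was at 53.0, 49.3 and 48.0 CPM. Ddit4, an inhibitor of mTORC1 signalling, was at 23.7, 36.1 and 24.4 CPM, and none of these 3 was past the size rule in either comparison. Egln3, an oxygen sensor that is itself a HIF target, had 1, 2 and 0 UMIs, and Adm, the gene of the vasodilator adrenomedullin, had 1, 7 and 1 UMIs with 57.1% of the 7 in 1 cell, so neither could be compared.

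The target RNAs were spread over many cells. At a depth thinned to 1000 UMIs per cell, at least 1 UMI of Ankrd37, Bnip3 or Ndrg1 was found in 3.64% of WT healthy endothelial cells (exact interval 1.58% to 7.04%), 39.1% of WT tumour cells (33.0% to 45.5%) and 9.64% of PPARg-/- tumour cells (6.88% to 13%). Without thinning the shares were 18.6%, 73.0% and 26.0%, at median depths of 4182, 3768.5 and 2898 UMIs. For Ankrd37 alone the thinned shares were 0.909%, 25.8% and 3.39%, beside 0.330%, 0.148% and 0.124% in T cells, which served as background. In WT tumour the 97 thinned cells with a UMI of the 3 targets carried 2.68 UMIs of the 20 glycolysis genes per 1000 (exact Poisson interval 2.36 to 3.03) and the 151 cells without carried 2.10 (1.87 to 2.34). The cells without a target UMI carried 1.17 in WT healthy (212 cells) and 1.5 in PPARg-/- tumour (347 cells). Cells with a target UMI carried 1.25 in WT healthy (8 cells, interval 0.599 to 2.3). In PPARg-/- tumour they carried 1.59 (37 cells, interval 1.21 to 2.06). Both intervals include the value of the cells without a target UMI, so neither library showed a gap beyond counting error. The 8 WT healthy cells are too few to exclude a gap. At full depth 181 of the 248 WT tumour cells had a target UMI, so many cells counted as without one at 1000 UMIs do hold the RNA, and the split does not part positive from negative cells.

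**Figure D3:**
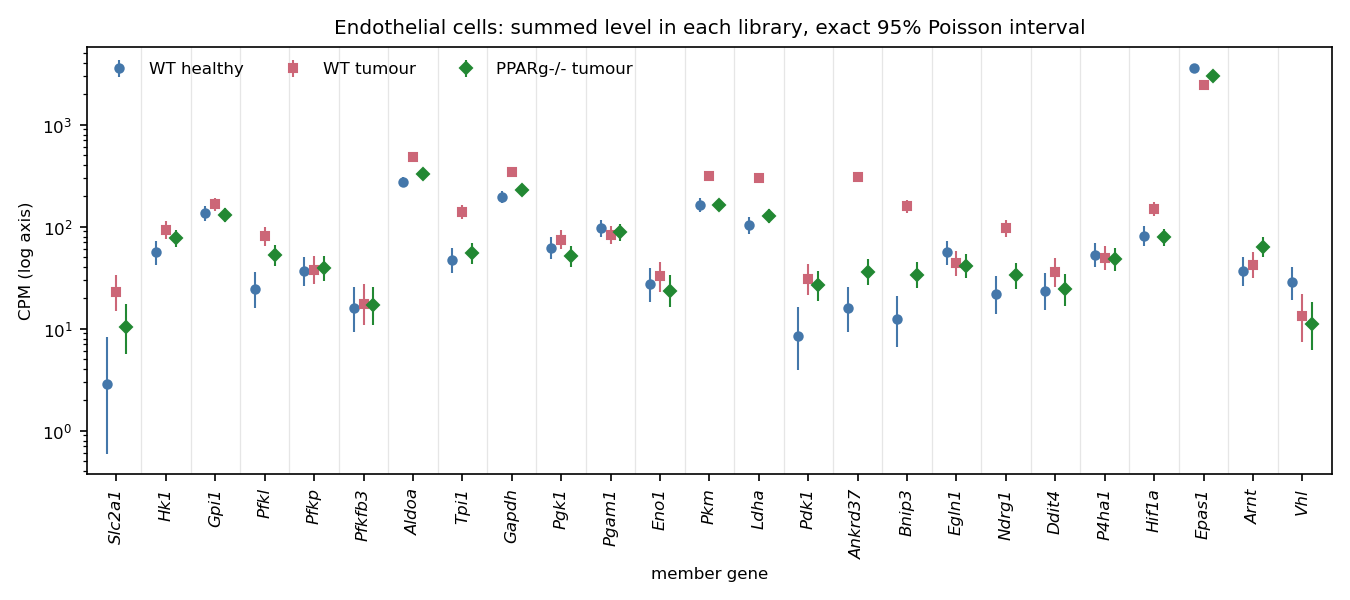
Summed level in endothelial cells (y axis, CPM on a log axis) of the 25 genes measured in WT tumour over WT healthy, in each library (marker shape and colour) with exact 95% Poisson intervals. The WT tumour squares stand above both other libraries for Ankrd37, Bnip3, Ndrg1, Ldha, Tpi1 and Pkm, and below both for Epas1.

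Glucose uptake and the early steps were next. Slc2a1, the glucose transporter GLUT1, was at 2.84, 22.9 and 10.3 CPM (3, 26 and 14 UMIs), lowest in WT healthy. Its log2 ratios were 3.01 (interval 1.31 to 5.38) and −1.15 (interval −2.20 to −0.16), wide because of the few UMIs. Hk1, which traps glucose in the cell by phosphorylation, was at 55.8, 93.3 and 76.8 CPM and was higher in WT tumour than in WT healthy (0.74, interval 0.27 to 1.23). Its ratio of −0.28 (interval −0.69 to 0.12) in PPARg-/- tumour over WT tumour was inside the counting error. Pfkl, a subunit of phosphofructokinase, which commits glucose to glycolysis, was at 24.6, 80.1 and 52.4 CPM, with ratios of 1.70 (interval 1.06 to 2.39) and −0.61 (interval −1.08 to −0.15). In the large endothelial cluster alone the second ratio was −0.43 and no longer past the rule. The other phosphofructokinase subunit measured, Pfkp, was at 36.9, 37.9 and 39.1 CPM, and Pfkfb3, which makes the activator of phosphofructokinase, at 16.1, 17.6 and 17.0 CPM, with no difference beyond counting error.

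In the later steps of the chain the enzymes parted again. Aldoa, the main aldolase, was at 274, 482 and 326 CPM in endothelial cells, with ratios of 0.82 (interval 0.61 to 1.03) and −0.56, the latter just under 1.5-fold. Tpi1, the triose phosphate isomerase, was at 47.3, 140 and 55.4 CPM, with ratios of 1.56 (interval 1.10 to 2.05) and −1.34 (interval −1.75 to −0.93). WT tumour was highest for both enzymes. Gapdh was at 197, 344 and 229 CPM (0.81, interval 0.56 to 1.06, and −0.59, interval −0.81 to −0.37, at the limit of the rule). Pkm, the pyruvate kinase, was at 163, 313 and 162 CPM (0.94, interval 0.67 to 1.21, and −0.94, interval −1.19 to −0.70). The enzymes between Gapdh and Pkm did not follow: Pgk1 was at 62.5, 74.8 and 51.7 CPM, Pgam1 at 96.5, 83.7 and 87.8 CPM and Eno1 at 27.4, 32.6 and 23.6 CPM, all 3 within 1.5-fold in both comparisons. Gpi1, the second enzyme of the chain, was also within 1.5-fold at 135, 166 and 131 CPM. Gapdh, Aldoa, Eno1, Ldha and Pgam1 have processed pseudogenes or near-identical copies that can share reads with them, so the division of reads among copies is uncertain.

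Ldha, the subunit of lactate dehydrogenase that favours lactate, was at 104, 301 and 128 CPM in endothelial cells (110, 342 and 173 UMIs), highest in WT tumour by a margin wider than any interval. Its ratios were 1.53 (interval 1.22 to 1.86) and −1.24 (interval −1.51 to −0.97). Ldhb, the subunit that favours pyruvate, had 2, 5 and 17 UMIs, and its higher level in PPARg-/- tumour (1.51, interval 0.01 to 3.30) is near what free RNA can give, since a 10% share of free RNA would supply 56.1% of it. Pdk1 was at 8.52, 30.8 and 26.6 CPM, higher in WT tumour than in WT healthy (1.86, interval 0.77 to 3.10) and within counting error between the tumour libraries (−0.21, interval −0.93 to 0.50). Slc16a3 had 4, 11 and 2 UMIs, under the minimum. Hk2, Pfkfb4 and Aldoc, with at most 4 UMIs in any library, were also not measured in endothelium.

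Among the HIF genes, Hif1a was at 81.4, 150 and 79.0 CPM in endothelial cells and followed the pattern of the targets, with ratios of 0.88 (interval 0.50 to 1.27) and −0.92 (interval −1.29 to −0.57). Epas1 had the opposite order, at 3611, 2476 and 3006 CPM, lowest in WT tumour. Its ratios of −0.54 (interval −0.62 to −0.47) and 0.28 (interval 0.21 to 0.35) were within 1.5-fold although their intervals excluded 0. Vhl was at 28.4, 13.2 and 11.1 CPM, lower in both tumour libraries (−1.10, interval −2.10 to −0.16, in WT tumour over WT healthy), on 30, 15 and 15 UMIs. Arnt, the shared partner of both HIF proteins, was at 36.9, 42.3 and 63.5 CPM, and its ratio of 0.59 (interval 0.06 to 1.13) in PPARg-/- tumour over WT tumour sits at the limit of 1.5-fold and was 0.29 in the large cluster alone.

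**Figure D4:**
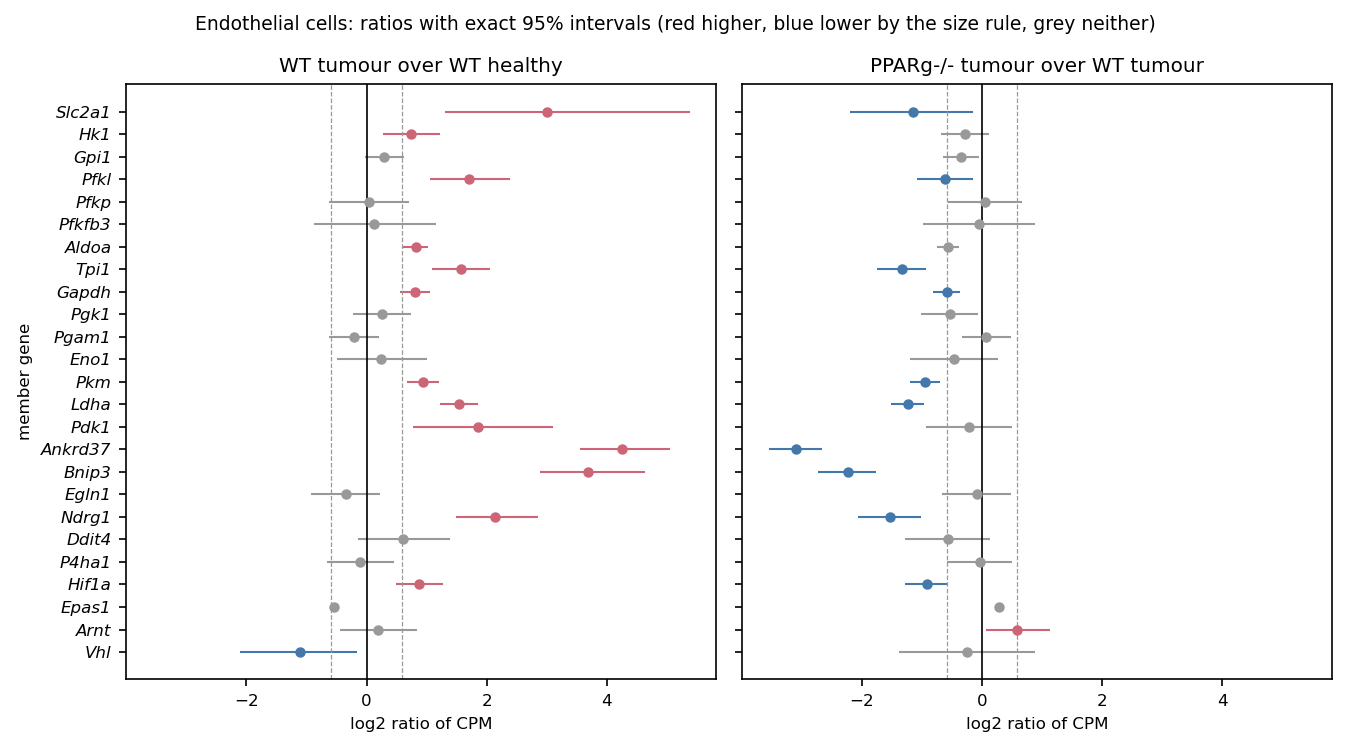
Log2 ratio of CPM in endothelial cells (x axes) with exact 95% intervals for the 25 genes (y axis), for WT tumour over WT healthy (left) and PPARg-/- tumour over WT tumour (right); red is higher and blue lower by the size rule, grey neither, and dashed lines mark 1.5-fold. Red points fill the left panel from Slc2a1 at 3.01 to Ankrd37 at 4.26, blue points the right one with Ankrd37 at −3.09, and Pfkp, Pfkfb3, Pgam1, Egln1 and P4ha1 stay near 0 in both.

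Promoter sequence from RefSeq (build GRCm38.p6) was read for 250 bases before to 50 after each start site. It was held for 30 of the 32 genes, as 40 promoters, and Ndrg1 and Epas1 were not among them. The letters ACGTG and GCGTG, the 2 spellings of the HIF core, were searched on both strands, so that the palindrome CACGTG counts on each. ACGTG was in 21 of the 40 promoters (52.5%) and in 19.6% of all 32851 promoters of that length. GCGTG was in 60.0% and 32.4%, and either in 82.5% and 43.8%. The genes were named for pathways known to hold HIF targets, so these shares describe the set. Among the genes higher in WT tumour endothelium 9 of 12 had ACGTG, and among those that were neither higher nor lower 6 of 10 had it.

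The promoters of Ankrd37 and Bnip3, which led the endothelial difference, of Slc2a1 and Ldha, which had the same order of libraries, of Hk2, which has the letters but was at or near 0 UMIs in endothelium, and of Tpi1, which was higher without them, are shown 5' to 3' along the gene's strand. Capitals mark ACGTG or GCGTG and their reverse complements. A match is a string of letters and no measured site.
Ankrd37, chr8:45999801-46000100, minus strand: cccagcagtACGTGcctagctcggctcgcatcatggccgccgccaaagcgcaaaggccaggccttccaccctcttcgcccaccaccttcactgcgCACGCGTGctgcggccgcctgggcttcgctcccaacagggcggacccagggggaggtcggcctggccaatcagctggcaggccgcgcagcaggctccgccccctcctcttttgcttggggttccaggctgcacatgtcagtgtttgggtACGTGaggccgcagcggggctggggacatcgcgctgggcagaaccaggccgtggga
Bnip3, chr7:138909457-138909756, minus strand: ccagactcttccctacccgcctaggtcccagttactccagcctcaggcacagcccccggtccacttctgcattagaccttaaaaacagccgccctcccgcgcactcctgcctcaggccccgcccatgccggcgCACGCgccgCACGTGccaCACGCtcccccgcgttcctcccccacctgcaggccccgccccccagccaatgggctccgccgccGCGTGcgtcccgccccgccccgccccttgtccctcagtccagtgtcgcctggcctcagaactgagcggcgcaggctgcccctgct
Slc2a1, chr4:119108495-119108794, plus strand: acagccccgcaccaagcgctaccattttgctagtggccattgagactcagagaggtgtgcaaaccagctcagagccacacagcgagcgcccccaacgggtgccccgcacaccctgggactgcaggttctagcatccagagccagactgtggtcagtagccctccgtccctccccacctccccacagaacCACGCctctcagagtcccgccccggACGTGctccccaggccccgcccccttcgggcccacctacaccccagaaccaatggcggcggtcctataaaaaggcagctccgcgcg
Ldha, first start, chr7:46845554-46845853, plus strand: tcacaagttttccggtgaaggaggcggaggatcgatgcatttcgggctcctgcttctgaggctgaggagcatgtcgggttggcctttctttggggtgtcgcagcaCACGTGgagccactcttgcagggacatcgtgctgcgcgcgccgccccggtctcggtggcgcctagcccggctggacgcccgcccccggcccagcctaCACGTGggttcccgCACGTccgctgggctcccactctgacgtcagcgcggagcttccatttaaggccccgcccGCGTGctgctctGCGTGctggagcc
Ldha, second start, chr7:46846832-46847131, plus strand: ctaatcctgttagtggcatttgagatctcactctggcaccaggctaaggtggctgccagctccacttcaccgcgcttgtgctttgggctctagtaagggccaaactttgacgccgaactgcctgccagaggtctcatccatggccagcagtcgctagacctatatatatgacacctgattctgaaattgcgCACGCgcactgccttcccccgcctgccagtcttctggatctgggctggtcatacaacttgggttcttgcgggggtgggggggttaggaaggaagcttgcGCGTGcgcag
Hk2, chr6:82774405-82774704, minus strand: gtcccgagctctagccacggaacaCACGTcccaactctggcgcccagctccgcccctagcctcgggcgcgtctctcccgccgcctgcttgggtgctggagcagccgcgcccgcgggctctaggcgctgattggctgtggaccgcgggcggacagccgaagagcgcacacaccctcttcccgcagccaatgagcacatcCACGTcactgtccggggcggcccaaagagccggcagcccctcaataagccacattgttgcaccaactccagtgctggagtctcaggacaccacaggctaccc
Tpi1, chr6:124814109-124814408, minus strand: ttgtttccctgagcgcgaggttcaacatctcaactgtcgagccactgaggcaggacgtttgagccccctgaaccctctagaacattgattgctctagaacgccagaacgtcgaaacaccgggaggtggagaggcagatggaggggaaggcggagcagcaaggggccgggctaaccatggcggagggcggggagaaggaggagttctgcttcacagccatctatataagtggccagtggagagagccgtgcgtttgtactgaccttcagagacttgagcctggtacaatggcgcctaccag
The Ankrd37 gene spans chr8:45996902-46005707 on the minus strand and Bnip3 chr7:138890836-138909519 on the minus strand, both protein-coding, in the GENCODE annotation of the same build. Ankrd37 held 2 matches of each spelling, Bnip3 2 of ACGTG and 3 of GCGTG and the first Ldha promoter 5 and 2.

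A further 39 hypoxia response genes outside the 32 were read in the same endothelial cells. In WT tumour over WT healthy 8 of the 29 measured were higher and 2 lower, where 5.87% and 5.92% of all genes were. Bhlhe40, a transcriptional repressor, was at 16.1, 99.5 and 30.3 CPM, Nos2, the inducible nitric oxide synthase, at 8.52, 39.6 and 31.7 CPM, and Edn1, the vasoconstrictor endothelin, at 446, 1307 and 732 CPM. Vegfa, the angiogenic factor and a known HIF target, went the other way at 389, 227 and 288 CPM, and so did Arrdc3 at 56.8, 26.4 and 42.8 CPM. In PPARg-/- tumour over WT tumour, where 4.18% of all genes were higher and 3.68% lower, 5 of 29 were lower (Bhlhe40, Loxl2, Narf, Edn1 and Mif) and 2 higher (Arrdc3, and Apln at 83.3, 73.1 and 150 CPM). Of 38 other genes of glucose metabolism 19 were measured, with none higher or lower in the first comparison and 1 each way in the second (Txnip higher, Pgd lower).

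Several measures of quality and of other cell types differed between the same endothelial libraries, and their part in the result was not tested. Of 19 genes of the stress of tissue dissociation, 4 were higher and 6 lower in WT tumour over WT healthy, and none higher and 9 lower in PPARg-/- tumour over WT tumour. Fos, an immediate early gene, was highest in WT tumour, at 44.5, 181 and 15.5 CPM, while the 19 genes summed to 5609, 4795 and 3485 CPM. All 9 AT2 markers were found in each library and summed to 469, 765 and 481 CPM, highest in WT tumour. The 7 AT1 markers summed to 623, 248 and 573 CPM, and 6 red cell and platelet markers to 499, 13.2 and 11.1 CPM, with Alas2 at 0 throughout. The 10 endothelial markers summed to 12780, 12494 and 13250 CPM. In AT2 cells of WT tumour Ankrd37 was at 4.45, Bnip3 at 53.7 and Ndrg1 at 1.48 CPM, each below its level in the endothelium of that library.

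In the main macrophages the 32 genes differed one by one rather than together. These are the largest non-cycling clusters with alveolar macrophage markers in each library, with 832, 943 and 1158 cells. In WT tumour over WT healthy 7 of 30 measured genes were higher and 2 lower, where 7.51% of all 11491 genes were higher and 15.2% lower. The 7 include Ldhb and Epas1, whose WT healthy levels are read as background below, so the count overstates the genes that can be read. Ldhb and Ndrg1 had 5 and 6 UMIs in WT healthy and passed the UMI minimum through WT tumour. Over WT tumour, PPARg-/- tumour had 8 higher and 4 lower, where 15.0% and 18.3% of 12084 genes were. The median log2 ratio of the members was 0.18 and 0.13, beside −0.16 and −0.14 over all genes. Scaling by the median ratio shifted values by 0.156 and 0.177 and gave 10 higher and none lower in the first comparison.

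Each library had its own main cluster, made without integration. That of WT healthy held 832, 8 and 1 cells of the libraries and that of WT tumour 21, 943 and 80. WT tumour over WT healthy thus also compares separate clusters. The PPARg-/- tumour cluster is not the same kind of cell by its markers, and the groups are compared by cluster for this reason. Marco, an alveolar macrophage receptor, was at 561, 319 and 0.254 CPM, Siglecf at 236, 135 and 6.86 CPM, and C1qa, a complement gene of interstitial macrophages, at 0.367, 3.16 and 1881 CPM. All 12 alveolar markers summed to 23582, 21897 and 13182 CPM, and the 12 interstitial ones to 88.7, 150 and 19520 CPM. Only 80 PPARg-/- tumour cells lay in the WT tumour cluster. Set over WT tumour, those 80 cells gave the opposite sign for 6 of the 12 genes past the rule and left 1 of the 12, Aldoc, past it. The 80 cells were picked for lying in the WT tumour cluster, so their likeness to it is partly fixed by that choice. The differences below are differences between clusters and cannot be told apart from cell type. Csf1rCre acts in this lineage.

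Ldhb had the largest ratio, with 5, 49 and 1609 UMIs in the main macrophages, or 0.459, 3.37 and 81.8 CPM. The 2 WT libraries were near 0 and PPARg-/- tumour was high (log2 ratio over WT tumour 4.60, interval 4.19 to 5.04). The WT tumour level under this ratio is read as background below, so its size is not to be taken as a fold. A UMI was found in 0.601%, 3.82% and 68.5% of cells, or 0.120%, 0.424% and 7.94% at 1000 UMIs. Free RNA held 24.7, 29.6 and 70.5 CPM of Ldhb, and a 10% share of it would supply 88.0% of the WT tumour level and more than all of the WT healthy level, so both WT values are read as background. In PPARg-/- tumour that share was 8.61%, and nonclassical monocytes of the same library had 5.13 CPM. The Ldhb share of both lactate dehydrogenase subunits was 0.155%, 1.03% and 26.1%, with Ldha at 295, 325 and 232 CPM. The 80 PPARg-/- tumour cells of the WT tumour cluster held 1 Ldhb UMI.

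Hk2 and Slc2a1 were lowest in WT healthy and highest in PPARg-/- tumour, and Hk1 had another order. Hk2 was at 55.3, 99.7 and 211 CPM in the main macrophages, with log2 ratios of 0.85 (interval 0.71 to 0.99) and 1.08 (interval 0.99 to 1.17). Slc2a1 was at 7.06, 15.9 and 25.2 CPM (1.17 and 0.67), and Hk1 at 10.4, 6.46 and 22.6 CPM (−0.68 and 1.81), lowest in WT tumour. Eno1, the enolase, was at 34.7, 47.9 and 79.4 CPM and was past the rule in the second comparison (0.73), as was Pfkl at 17.3, 16.6 and 26.0 CPM (0.65). In the 80 PPARg-/- tumour cells of the WT tumour cluster the ratios to WT tumour were −0.20 for Hk2, −0.53 for Slc2a1, −0.37 for Hk1 and −0.22 for Eno1.

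Other steps were lower in the PPARg-/- tumour cluster. Aldoc, the aldolase known from brain, was at 60.6, 97.7 and 24.3 CPM in the main macrophages, with ratios of 0.69 (interval 0.55 to 0.82) and −2.01 (interval −2.16 to −1.86). In classical monocytes Aldoc was at 0.902, 1.47 and 0 CPM, and in dendritic cells at 8.52, 30.5 and 33.6 CPM. Pdk1 was at 23.3, 28.2 and 10.7 CPM (−1.40 in PPARg-/- tumour over WT tumour), Pfkp at 104, 131 and 72.5 CPM (−0.85) and Pfkfb4, a kinase that sets the activator of phosphofructokinase, at 97.8, 88.6 and 51.6 CPM (−0.78). The most abundant enzymes stayed within 1.5-fold: Gapdh at 727, 1022 and 888 CPM, Aldoa at 725, 783 and 718 CPM and Pkm at 262, 272 and 309 CPM. Gpi1, Tpi1, Pgk1, Pgam1, Pfkfb3 and Slc16a3 were also neither higher nor lower.

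**Figure D5:**
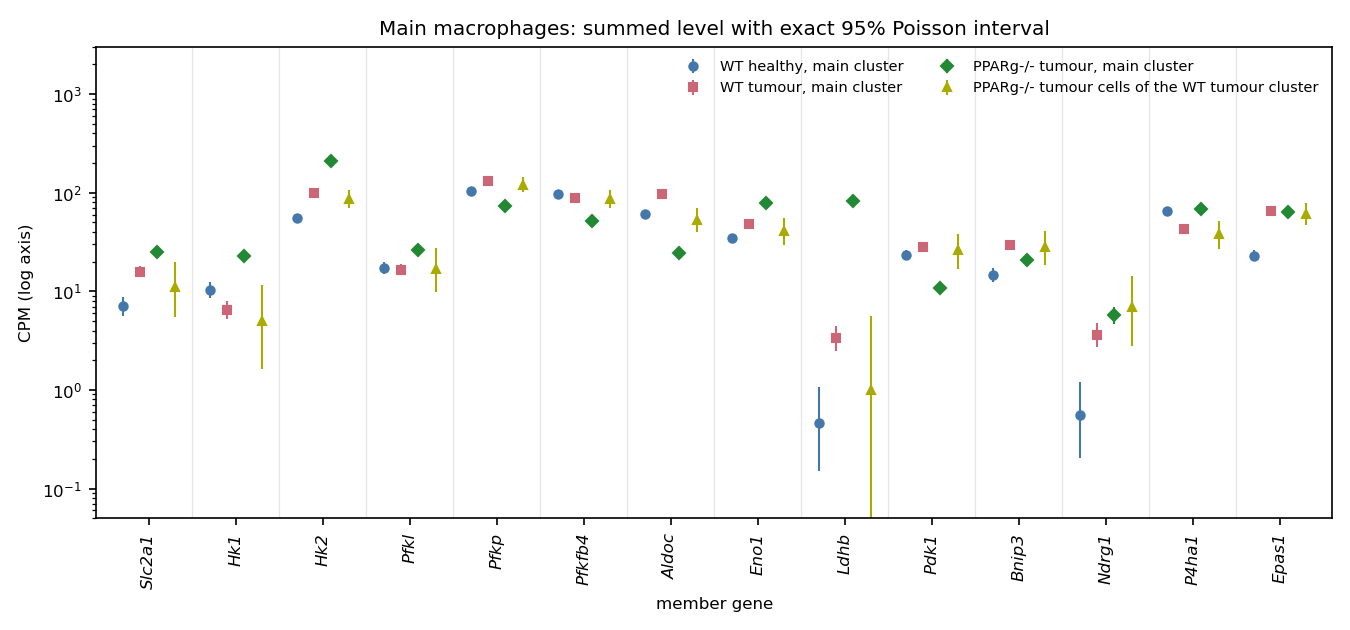
Summed level in the main macrophages (y axis, CPM on a log axis) of the 14 genes past the size rule in a comparison, with exact 95% Poisson intervals, for the main cluster of each library and for the 80 PPARg-/- tumour cells that lay in the WT tumour cluster (triangles). Ldhb is at 81.8 CPM in the PPARg-/- tumour cluster and near 1 CPM in the triangles, and the triangles lie near the WT tumour squares for Hk2, Pfkp, Pfkfb4 and Pdk1.

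Of the hypoxia targets that led in endothelium, Ankrd37 and Ndrg1 were low in the main macrophages. Ankrd37 was at 0.550, 1.24 and 0.915 CPM, and Ndrg1 at 0.550, 3.64 and 5.69 CPM, past the rule in both comparisons (2.73 and 0.64) at levels of 6, 53 and 112 UMIs. Bnip3 was at 14.6, 29.1 and 20.9 CPM, higher in WT tumour than in WT healthy (1.00, interval 0.73 to 1.27). P4ha1 was lowest in WT tumour at 65.7, 42.7 and 67.7 CPM (−0.62 and 0.66). Egln1 was at 50.9, 39.6 and 30.4 CPM, Ddit4 had 5, 16 and 19 UMIs, and Egln3 and Adm had at most 2 UMIs. Hif1a was at 75.7, 109 and 118 CPM and within 1.5-fold in both comparisons, as were Arnt and Vhl. Epas1 was at 22.9, 64.7 and 62.9 CPM, past the rule in WT tumour over WT healthy. Free RNA held 324, 99.4 and 181 CPM of it, and a 10% share would supply more than all of the WT healthy level, which is read as background, so no fold is given.

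Outside the 32, 5 of 30 measured genes of glucose metabolism were lower and 1 higher (Slc16a1, a lactate and pyruvate transporter, at 8.16, 19.2 and 9.25 CPM) in WT tumour over WT healthy main macrophages, where 15.2% and 7.51% of all genes were. Between the tumour libraries 6 of 32 were higher in PPARg-/- tumour, led by the transporters Slc2a3 (0.459, 0.344 and 3.56 CPM) and Slc2a6 (4.04, 3.44 and 16.9 CPM) and by Pfkm (1.01, 1.17 and 3.86 CPM), the muscle phosphofructokinase. Another 6 were lower, led by Gys1, Slc16a1 and Taldo1, where 15.0% of all genes were higher and 18.3% lower. Of the other hypoxia genes 4 were higher and 7 lower of 27 in the first comparison, and 5 higher and 8 lower of 30 in the second, against the same shares of all genes. No difference particular to these lists is read from the counts. Pgf, a growth factor of the VEGF family, was at 1.65, 7.08 and 0.407 CPM. The 19 dissociation stress genes summed to 5808, 2945 and 3318 CPM in these cells, with 12 lower in WT tumour over WT healthy, and their part was not tested.

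Nonclassical monocytes showed few differences, at shares near those of all genes. In nonclassical monocytes (239, 494 and 1033 cells) 1 of 29 genes was higher and 2 lower in WT tumour over WT healthy, where 5.01% and 5.39% of all genes were. Pfkfb4 was higher at 36.3, 70.4 and 63.2 CPM, and Slc16a3 and Egln1 were lower, the latter at 47.1, 22.2 and 27.5 CPM. In PPARg-/- tumour over WT tumour none was higher and 2 were lower, where 4.53% and 4.50% of all genes were. Ddit4 was at 94.1, 85.8 and 25.7 CPM in these monocytes, lowest in PPARg-/- tumour (−1.74, interval −2.13 to −1.36). Ankrd37 had 12, 18 and 20 UMIs and was lower there as well (−1.04, interval −2.03 to −0.04). Their dissociation stress genes summed to 15171, 8720 and 9248 CPM.

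In T cells (910, 1347 and 1614 cells) 1 of 28 genes was higher and 2 lower in WT tumour over WT healthy, where 7.72% and 4.38% of all genes were. Pgam1, the phosphoglycerate mutase, was at 27.1, 40.8 and 37.7 CPM (0.59, interval 0.22 to 0.96, and within 1.5-fold when the 50 most abundant genes were left out of the total, which left none higher and 2 lower). P4ha1 was at 58.0, 31.9 and 37.0 CPM (−0.86, interval −1.19 to −0.54) and Epas1 had 18.9, 8.91 and 23.1 CPM (−1.09). A 10% share of free RNA would supply more than all of the Epas1 level in both WT libraries and 78.6% of it in PPARg-/- tumour, so Epas1 in T cells is read as background. None of 18 measured dissociation stress genes was higher and 10 were lower in WT tumour over WT healthy T cells, with sums of 5077, 3274 and 3518 CPM over all 19, and their part was not tested. Between the tumour libraries 1 gene was higher and 1 lower of 28 in PPARg-/- tumour, where 1.93% and 3.83% of all genes were. Those were Epas1, at background, and Ankrd37, which had 18 and 7 UMIs.

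In dendritic cells (93, 243 and 83 cells) 6 of 28 genes were higher in WT tumour than in WT healthy and 3 lower, where 7.03% and 8.24% of all genes were. Ndrg1 was at 12.8, 78.5 and 40.6 CPM, highest in WT tumour (log2 ratio 2.62, interval 1.78 to 3.59). Slc2a1 was at 17.0, 43.8 and 30.8 CPM, Hk2 at 153, 243 and 227 CPM, Aldoc at 8.52, 30.5 and 33.6 CPM, Tpi1 at 59.7, 109 and 67.2 CPM and Bnip3 at 3.20, 16.0 and 8.40 CPM. WT healthy was the lowest library for each of these 6. They were chosen as higher in WT tumour, so only their order against PPARg-/- tumour is not fixed by that choice. Slc2a1, Aldoc, Ndrg1 and Bnip3 had 16, 8, 12 and 3 UMIs in WT healthy and passed the UMI minimum through WT tumour. The count of 6 is thus a description of the libraries. Of the 19 dissociation stress genes 9 were higher and 4 lower in the same comparison, with a median log2 ratio of 0.78, and their part was not tested. Ddit4 was lower in WT tumour at 36.2, 18.7 and 7 CPM, as were Vhl and Epas1, the last with 64.3% of its higher library's UMIs in 1 cell and, in all 3 libraries, 72.4% or more of its level within a 10% share of free RNA. From WT tumour to PPARg-/- tumour 4 of 28 were lower (Tpi1, Ndrg1, Ddit4 and Arnt), where 3.81% of all genes were, and 1 was higher (Epas1, with 66.7% of its UMIs in 1 cell), where 2.95% were. A small cluster with high Ccr7 and Fscn1, genes of migratory dendritic cells, had Ndrg1 at 299.9 CPM in its 27 WT tumour cells. Dendritic cells were compared after their values were seen and under no alternative.

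AT2 cells could be compared between the tumour libraries only (177 and 169 cells, against 41 in WT healthy). None of 26 genes was higher and 2 were lower in PPARg-/- tumour, where 3.28% and 5.34% of all genes were. Hk1 was at 49.3 and 32.2 CPM (−0.61, interval −1.03 to −0.21) and Hk2 at 83.0 and 53.4 CPM (−0.64, interval −0.96 to −0.32), and neither was past the rule under median-ratio scaling. Ldha was above its level in the main macrophages of the same libraries, at 521 and 441 CPM, and Ldhb was at 99.3 and 136 CPM, 16.0% and 23.6% of the pair.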

How the data were processed

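Raw UMI counts per gene and barcode were deposited by the authors for 3 libraries, 1 per group, unfiltered (6794880 listed barcodes, 32285 genes). The genome was mm10, with Cell Ranger 6.0.1 and Seurat 4.0.1, per the submitters' processing notes, and Cell Ranger 4, per the file headers. The aligner's options are not given in the sources.

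Cells had at least 1000 UMIs, 500 genes and at most 10% mitochondrial UMIs. Scrublet (scanpy 1.11.5, expected rate 6%) removed 53, 106 and 142 doublets. Leiden clusters (resolution 1.0, 2000 variable genes without the 32 genes and the other pathway genes, 30 components, 15 neighbours, no integration) were named where at least 3 markers of a type were 4-fold over the median cluster in at least 10% of cells. As main macrophages, each library's largest cluster that was not cycling and raised at least 5 alveolar markers was taken.

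Counts were summed per class and library and scaled to 1000000 UMIs. Ratios have exact 95% intervals (conditional binomial, Clopper-Pearson), with a floor of 3 UMIs against 0. The intervals were tried on simulated Poisson counts, the model they assume, so that trial says nothing of spread between mice or libraries. Intervals cover counting error only. Classes needed 50 cells in both libraries. Values per library are given for each of the 32 genes past the size rule, and at most the 3 highest and 3 lowest of the other pathway genes per comparison. A further 12 settings were tried, and 2 were added after the data were seen (closing section). The members and lists were chosen with earlier results of these data known.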

Additional observations from a re-analysis of the deposited data

How the results depend on the processing

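The 59 values of single genes past the size rule were computed under the alternatives, giving 679 values, of which 673 kept their sign and 599 were still past the rule. Values under the UMI minimum in an alternative, or of a class it did not cover, are not among the 679. The share still past the rule differed between settings. Thinning to 1000 UMIs gave 46 of the 59, with 33 past the rule. A mitochondrial limit of 5% gave 53, with 42 past it. All macrophages and monocytes together gave 21, with 12 past it. A minimum of 50 UMIs gave 52. That minimum leaves each ratio unchanged, so it cannot reverse a sign. The 6 that reversed all came from the 80 PPARg-/- tumour cells of the WT tumour main cluster over the WT tumour main macrophages, an alternative added after the data were seen: Slc2a1 −0.53, Hk1 −0.37, Hk2 −0.20, Eno1 −0.22, Ldhb −1.75 and P4ha1 −0.17. That alternative left 2 of 28 measured members past the rule, against 12. Thinning to 1000 UMIs, which leaves fewer UMIs to count, lowered the 14 members of endothelial WT tumour over WT healthy to 9 (8 higher and 1 lower of 17), the 9 of main macrophages to 5, the 3 of nonclassical monocytes to 0, the 3 of T cells to 1, and in PPARg-/- tumour over WT tumour both T cells and AT2 cells from 2 to 1. With it 8 genes, against 13, had the same highest class in every library. The 12 members of endothelial PPARg-/- tumour over WT tumour stayed between 8 and 13 under each alternative. All macrophages and monocytes together gave 5 against 9 in WT tumour over WT healthy. T cells gave 5 against 3 with each library clustered alone, and in PPARg-/- tumour over WT tumour 0 with a mitochondrial limit of 5% and 1 with a minimum of 50 UMIs. Nonclassical monocytes in that comparison gave 1 with doublets kept, 1 without the top cell of each gene and 1 with a minimum of 50 UMIs. AT2 cells gave 1 with cells weighted equally, and 0 without the 50 most abundant genes, with median-ratio scaling and with each library clustered alone. The cause of these was not tested. The largest endothelial cluster alone, also added after the data were seen, gave 25 of the 26 endothelial values, all with the same direction and 23 past the rule.

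No paired analysis was possible because each group is 1 library, with no replicate numbers to pair. Leaving out a replicate was likewise not possible. With 1 library per group the spread between mice is unknown, and 3 mice were pooled in each. Depth limits the genes with few UMIs: Slc2a1, Pdk1, Vhl and Ldhb in endothelium rest on 2 to 36 UMIs a library.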

Other observations

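Hif1a, Gapdh and Pdk1 differed between 2 clusters of T cells in each library, genes and clusters chosen after their values were seen. A cluster of 107, 307 and 253 cells led by Ccl5 had Hif1a at 190, 201 and 145 CPM, and a cluster led by Cd8b1 and Dapl1 had it at 53.1, 45.5 and 42.1 CPM. Gapdh was at 448, 497 and 532 CPM in the first and 254, 271 and 286 CPM in the second. Pdk1 had the opposite order, at 41.9, 40.8 and 42.7 CPM and 113, 119 and 124 CPM.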
